A study of Arabidopsis thaliana with 54 samples.

Results

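miR163 is a microRNA of Arabidopsis thaliana, and 1 of the 286 microRNA features in the small RNA count table was taken here because its name is miR163. No other entry carries that name, and the table has 223651 features in all once its single entry named genome is set aside. The libraries were made from whole seedlings (shoot, hypocotyl and root) of the genotype Columbia 0, and the labels name no transgene. Seed was held in the dark for 48 h, and all seedlings then spent 10 days with equal light and dark periods of 12 h. On day 11 they were moved to long day (16 h light) or short day (8 h light) or stayed in equinox day (12 h light). Harvests followed on day 13, at 4, 8, 12, 16, 20 and 24 h after lights on (Zeitgeber time, ZT), with 3 libraries per time named A, B and C, which gives 54 libraries in 18 groups. Seedlings of the long-day and short-day groups had all changed photoperiod and those of the equinox-day groups had not, so that in comparisons with equinox day, an effect of the light hours and an effect of moving to another regime cannot be told apart. Whether replicates were grown separately is not stated in the labels, and all p-values here rest on the spread among libraries, which may be technical. The table holds small RNA only, so the tissue label was not checked against marker genes.

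A microRNA is cut from the stem of a folded precursor RNA by a Dicer-like enzyme and then guides an Argonaute protein to transcripts that pair with it. miR163 is known from Arabidopsis and its close relatives and acts on transcripts of SABATH methyltransferases, enzymes that put methyl groups on small metabolites. Among them are PXMT1 and FAMT. In Arabidopsis seedlings miR163 is known as light-inducible and has been tied to germination and primary root growth through PXMT1. The RefSeq annotation of the gene also records that its level is high in diploid Arabidopsis thaliana and low in the relative Arabidopsis arenosa.

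The mature sequence is shown with its seed (bases 2 to 8, which pair first with a target) in capitals, followed by the strand that faces it in the precursor stem, with the bases that pair with miR163 in capitals. Both are from the RefSeq copy of TAIR10.1, written as RNA and found there by name.
miR163: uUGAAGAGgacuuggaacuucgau
stem partner: AUCGAGUUCCAACCUCUUCAA
The mature strand lies at chr1:24884359-24884382 on the plus strand, in the only exon of MIR163 (AT1G66725, chr1:24884066-24884396), and covers bases 294 to 317 of the 331-base precursor. In the fold predicted by RNAfold, 21 of its 24 bases were paired, and 258 bases lay between the partner strand and the mature strand. Its 24-base length is uncommon among annotated microRNAs, since 325 of 428 mature names in this annotation have 21 bases and 11 have 24. No other annotated mature sequence shares its seed.

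MIR163 lies 1586 bases after AT1G66720 and 285 bases before LIG6, a DNA ligase gene, on the same strand. PXMT1 (AT1G66700) and its neighbour AT1G66690 lie on the other strand, 9300 and 13201 bases away. The annotation calls both of them methyltransferases of the S-adenosyl-L-methionine-dependent kind. The pseudogene AT1G66710 lies between PXMT1 and AT1G66720.

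**Figure D1:**
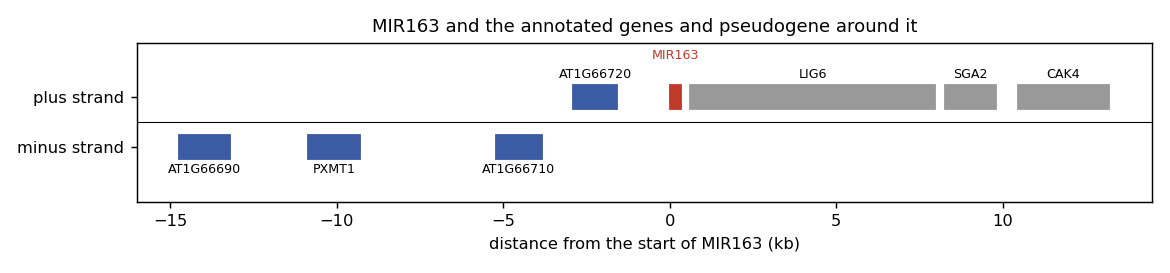
MIR163 (red) with the annotated genes and 1 pseudogene around it, by distance from the start of MIR163 in kb; boxes above the line are on the plus strand and boxes below on the minus strand. AT1G66690, PXMT1, AT1G66710 and AT1G66720, in blue, are those on chromosome 1 whose sequence resembles the precursor, and AT1G66720 is 1586 bases from it.

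The precursor resembles these neighbours in both orientations. A blastn search (expectation value of at most 1e-05) aligned its first 115 bases with PXMT1 in the sense direction, at 78.6% identity over 126 aligned positions. Its bases 159 to 260 aligned with AT1G66690 in the antisense direction at 81.4% identity over 102 positions. The stretch from base 266 to 331, which contains the mature strand, aligned antisense to AT1G66690 at 83.3% identity over 66 positions. AT1G66720 aligned with bases 1 to 115, 164 to 260 and 266 to 331, at 77.8%, 80.4% and 81.8% identity. In AT1G66690 the first and the last of these stretches of the precursor fell on overlapping positions, in opposite directions.

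Sites that pair with miR163 were looked for in all 52059 annotated mRNAs, counting 1 for a mismatch and 0.5 for a G-U pair. Of 31346 loci, 8 had a site that scored 4 or less, and all 8 scored 4. AT1G66690, PXMT1, FAMT (a farnesoic acid methyltransferase) and the methyltransferase locus AT5G38100 were among them. The rest were AT1G64840 (an F-box/kelch-repeat protein), AT4G24160 (an alpha/beta-hydrolase), AT5G23430 (a WD40 repeat-like protein) and FDM1, none annotated as a methyltransferase. AT1G64840 and FDM1 had 20 Watson-Crick pairs each, more than any of the methyltransferase sites, so the scan found methyltransferases beside other genes. Whether methyltransferases were more frequent among the 8 loci than among all loci was not tested. The sites of PXMT1, AT1G66690 and FAMT are shown, with that of the neighbour AT1G66720 just past the limit, because miR163 is known for acting on methyltransferase genes. They are written 5′ to 3′ with the bases that can form Watson-Crick pairs with miR163 in capitals. A match describes the letters only.
PXMT1, chr1:24874307-24874330, minus strand: catcgAGTTCCAAGTCCTCTTCAA
AT1G66690, chr1:24870402-24870425, minus strand: catcgAGTTCCAAGTCCTCTTCAA
FAMT, chr3:16380055-16380078, plus strand: AatcgAGTTCCAAGTttTCTTCAA
AT1G66720, chr1:24881603-24881626, plus strand: catcgAGTTCCAgGTCCTCTTCAA
The sites of PXMT1 and AT1G66690 are the same 24 letters, with 19 Watson-Crick pairs, and both lie in coding sequence. The FAMT site, also in coding sequence, has 18 such pairs, and the best site of AT1G66720 has 18 and scored 4.5. In PXMT1, AT1G66690 and AT1G66720 all letters that face the seed are capitals, in FAMT all but 1, and most lower-case letters lie at the end that faces the 3′ end of miR163. Levels of these target transcripts were not analysed here.

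The level of miR163 was moderate and was counted in every library. Libraries held 1333843 to 3585724 counts outside the genome entry, which itself took 79.6% to 92.9% of all counts, and 114873 to 409911 microRNA counts. miR163 had between 191 and 868 counts in a library (median 427.5). In CPM, which scales each count to the library total outside the genome entry with TMM factors, the level was 188 ± 52.4 (SD, n = 54), and 31 of the 149 microRNA features abundant enough to test had a higher mean. Ranked by counts within a library, miR163 stood between place 27 and place 40 among microRNAs. It made up 0.0955% to 0.300% of microRNA counts.

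Long day gave the narrowest range of levels and short day the highest. Over the 18 long-day libraries the level ran from 122 to 227 CPM with a median of 167, and over the 18 equinox-day libraries from 103 to 299 CPM with a median of 177. Over the 18 short-day libraries it ran from 125 to 309 CPM with a median of 217. The 3 ranges overlapped, but 7 short-day and 3 equinox-day libraries lay above the highest long-day library, and 5 equinox-day libraries lay below the lowest. In whole seedlings, fewer cells that make miR163 and less miR163 per cell cannot be told apart.

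**Figure D2:**
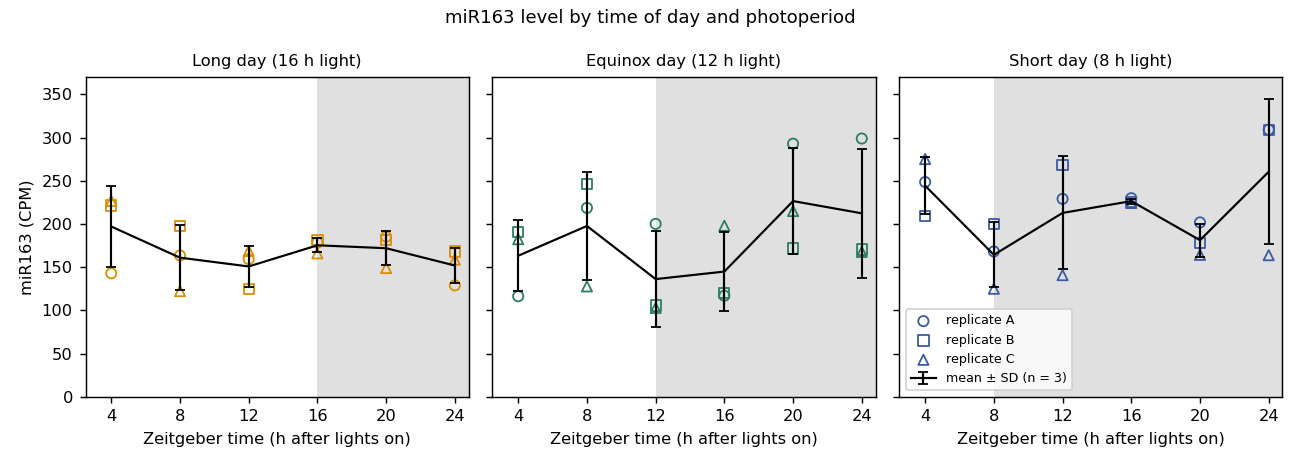
miR163 level in CPM (vertical axis) against Zeitgeber time in hours for long day, equinox day and short day; open symbols are single libraries by replicate letter, the line joins group means and bars are SD (n = 3), and grey marks darkness. Long-day libraries sit between 122 and 227 CPM, while short-day libraries reach 309 CPM.

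Under long day, the level stayed within a narrow band through light and dark. At ZT 4 the libraries A, B and C held 143, 221 and 227 CPM, at ZT 8 they held 164, 197 and 122 CPM, and at ZT 12 they held 159, 124 and 169 CPM. At ZT 16, the end of light, they held 178, 182 and 166 CPM. In the dark they held 185, 182 and 149 CPM at ZT 20 and 129, 168 and 159 CPM at ZT 24. The 3 libraries of ZT 16 lay closest together, with an SD of 8.22 CPM, and every later library lay within the 122 to 227 CPM of ZT 4 to ZT 12.

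Under equinox day, single libraries were far from their replicates at several times. At ZT 4 the libraries A, B and C held 116, 191 and 182 CPM, and at ZT 8 they held 219, 247 and 128 CPM. At ZT 12, the end of light, they held 200.2, 106 and 103 CPM, and at ZT 16 they held 117, 119.8 and 198 CPM. The lowest level of the study was thus in B and C of ZT 12, while A of the same time lay above the equinox-day mean of 180.2 CPM. Late in the night the libraries held 293, 171.7 and 215 CPM at ZT 20 and 299, 170.5 and 168 CPM at ZT 24. Library A was the highest at both of these times, and B and C overlapped with the libraries of the light hours.

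Under short day, ZT 4 and the end of the night held the highest libraries. At ZT 4 the libraries A, B and C held 249, 209 and 275 CPM, and at ZT 8, the end of light, they held 168, 199.7 and 125 CPM. These groups did not overlap, but the step between them missed the threshold (log2 fold change -0.57 ± 0.33, adjusted p = 0.999, edgeR, 0.0113% of all features past it). With 3 against 3 libraries groups can separate by chance, and the share of all features that did so was not counted. In the dark they held 229, 269 and 141 CPM at ZT 12 and 229.9, 225 and 224 CPM at ZT 16. At ZT 20 they held 202, 178 and 164 CPM, all below the ZT 16 libraries, a step that also missed the threshold (log2 fold change -0.32 ± 0.33, edgeR). At ZT 24 they held 309, 308 and 164 CPM. The ZT 16 libraries lay within an SD of 2.98 CPM, while at ZT 24 library C stood apart from A and B, with a group SD of 83.6 CPM.

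In the order of the 18 group means, short day at ZT 24 was highest with 260.5 ± 83.6 CPM (SD, n = 3), followed by short day at ZT 4 with 244 ± 33.2 CPM and equinox day at ZT 20 with 227 ± 61.5 CPM. The lowest were long day at ZT 12 with 151 ± 23.4 CPM, equinox day at ZT 16 with 145 ± 46.0 CPM and equinox day at ZT 12 with 136 ± 55.4 CPM. The highest mean was 1.91 times the lowest. All 17 gaps between neighbours in this order were smaller than the larger SD of the neighbours. Sorting 18 means makes such gaps small whether or not groups differ, so this cannot show that they are alike. The mean counts of a group give a counting error of 4.02% to 5.80% per library, while the coefficients of variation of the groups ran from 1.32% to 40.6%. Among microRNAs the spread of miR163 was small. Its SD within groups was 0.36 on the log2 CPM scale, the 13th lowest of 149, against a median of 0.51 over the 149 and of 0.38 over the 10 microRNAs of nearest mean level. Its group means spanned 0.94 on the same scale, against medians of 1.38 and 1.22.

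Long day was set against short day as the widest difference in light hours, with the 6 times averaged. miR163 stood at 168 ± 29.3 CPM under long day and at 215 ± 53.5 CPM under short day (SD, n = 18 each), and the mean was lower under long day at 6 of 6 times. The log2 fold change was -0.34 ± 0.14 (SE; 95% interval -0.62 to -0.07). This missed the threshold of 0.05 in edgeR's quasi-likelihood test (Benjamini-Hochberg adjusted p = 0.0569 over 8869 features), in a contrast where 25.1% of all features and 28.9% of microRNAs passed. DESeq2 placed it past the threshold, with a log2 fold change of -0.43 ± 0.12 and adjusted p = 0.00287. The call also differed between fits. Among microRNAs alone, which changes the features, the spread estimate and the number of tests as well as the scaling, the log2 fold change was -0.21 ± 0.08 with adjusted p = 0.0194, and with the genome entry counted in the totals it was -0.25 ± 0.16 with adjusted p = 0.238.

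**Figure D3:**
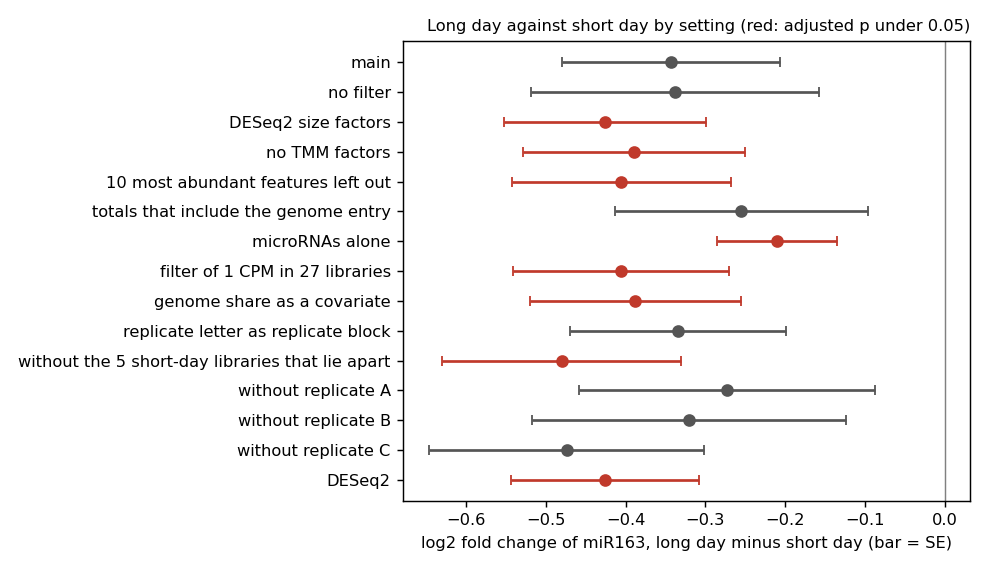
Log2 fold change of miR163 between long day and short day (horizontal axis, long day minus short day, bars are SE) with edgeR's main settings in the top line and each alternative below; red marks an adjusted p under 0.05. Every value is below 0, from -0.48 without the 5 short-day libraries that lie apart to -0.21 with microRNAs alone, and 8 of the 11 alternatives that keep all 3 letters are red. The fits that leave out a letter are not red. All alternatives refit the same counts, so their values are not independent.

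Of the 54 fits that each left out 1 library, 16 placed this difference past the threshold. Over the 54 fits, adjusted p ran from 0.0271, without library C of short day at ZT 24, to 0.0964. The other 15 libraries without which it passed were C of ZT 4, B of ZT 8 and B of ZT 24 in long day, A and C of ZT 8 and C of ZT 12 in short day, and 9 equinox-day libraries (C of ZT 4, A and C of ZT 8, all 3 of ZT 12, A and B of ZT 16, and A of ZT 24), which are in the fit but not in the contrast. Without the 5 short-day libraries that an earlier look at these data found apart from their groups in a principal component analysis (A of ZT 20, B of ZT 4 and ZT 16, and C of ZT 12 and ZT 24), the log2 fold change was -0.48 ± 0.15 (adjusted p = 0.0269). Leaving out all libraries of letter A, B or C gave -0.27 to -0.47, none past the threshold (adjusted p from 0.0685 to 0.310). The median log2 fold change was -0.17 over the 149 microRNAs and -0.02 over all 8869 features. In the order of microRNA log2 fold changes, miR163 was the 47th lowest.

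Between long day and equinox day, which differ by 4 h of light, the levels were close. Against 168 ± 29.3 CPM under long day, miR163 stood at 180.2 ± 59.9 CPM under equinox day (SD, n = 18). The log2 fold change was -0.08 ± 0.14 (95% interval -0.35 to 0.19, adjusted p = 0.750, edgeR), with long day lower at 3 of 6 times, and 15.7% of all features passed this contrast. The sign was the opposite among microRNAs alone (0.11) and with the genome entry counted in the totals (0.09).

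Short day gave a higher mean than equinox day at 4 of 6 times. The log2 fold change was 0.26 ± 0.14 (95% interval -0.01 to 0.54, adjusted p = 0.132, edgeR), short of the threshold in a contrast that 32.8% of all features passed. Fitted among microRNAs alone it was 0.32 ± 0.08 with adjusted p = 0.000867, and DESeq2 gave 0.31 ± 0.12 with adjusted p = 0.0256. Without library A of equinox day at ZT 12, the highest of its group, the edgeR value was 0.37 with adjusted p = 0.0457. The 3 comparisons of photoperiods share libraries, so their values are not independent.

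As a share of microRNA counts, miR163 gave 0.176% ± 0.0411 under long day, 0.160% ± 0.0418 under equinox day and 0.216% ± 0.0497 under short day (SD, n = 18 each). On this measure long day lay above equinox day rather than below it. All microRNAs together took 9.43% ± 1.33 of counts other than genome under long day, 11.0% ± 2.23 under equinox day and 10.01% ± 1.88 under short day. What part these shares had in the order of long day and equinox day was not tested.

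A daily course was tested within each photoperiod as a joint comparison of the 6 times. In long day the group means ran from 151 CPM at ZT 12 to 197 CPM at ZT 4, with adjusted p = 0.945 by edgeR's test, in a comparison that 13.3% of all features passed. In equinox day they ran from 136 CPM at ZT 12 to 227 CPM at ZT 20 (adjusted p = 0.494, 5.2% of features past the threshold). In short day they ran from 164 CPM at ZT 8 to 260.5 CPM at ZT 24 (adjusted p = 0.858, 3.99% past the threshold). The interaction of photoperiod and time gave adjusted p = 0.602, where 5.92% of all features passed. With 3 libraries per time, the SE of a log2 difference between times was 0.33, and a daily course was not detectable at this precision.

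Since miR163 is known as light-inducible, the times in light were also set against the times in dark, with the time at lights off counted as light. In long day the 12 libraries in light held 171 ± 33.1 CPM and the 6 in dark 162 ± 21.2 CPM, a log2 fold change of 0.07 ± 0.20 (95% interval -0.34 to 0.49, adjusted p = 0.861, 14.4% of features past the threshold). In equinox day the 9 libraries in light held 166 ± 53.5 CPM and the 9 in dark 195 ± 65.6 CPM, a log2 fold change of -0.22 ± 0.19 (95% interval -0.61 to 0.17, adjusted p = 0.725, 4.67% past it). In short day the 6 libraries in light held 204 ± 54.1 CPM and the 12 in dark 220.3 ± 54.8 CPM, a log2 fold change of -0.12 ± 0.20 (95% interval -0.54 to 0.29, adjusted p = 0.913, 4.04% past it). None of the 3 passed, and the direction was not the same in all photoperiods.

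With the time at lights off counted as dark, the log2 fold change was 0.03 in equinox day and 0.24 in short day, so that the signs there turned with the treatment of that 1 time. Light state was also tested as a term beside photoperiod and time, which separates it from clock time through the hours when 1 photoperiod is lit and another is dark. That coefficient was -0.07 ± 0.25 (adjusted p = 0.947, 4.59% of all features past the threshold), and its sign turned in 7 of 13 other settings.

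**Figure D4:**
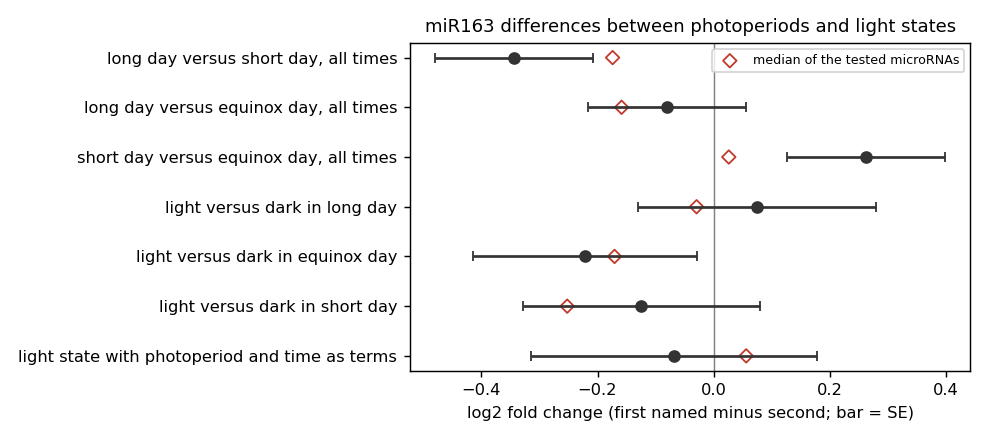
Log2 fold change of miR163 (filled points, bars are SE) for the 3 comparisons of photoperiods and the 4 of light and dark, with the median of the 149 tested microRNAs for the same comparison as open diamonds. The value farthest from 0 is -0.34 for long day against short day, where the microRNA median is -0.17; the light and dark values lie between -0.22 and 0.07.

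At single times, none of 18 comparisons of photoperiods passed edgeR's test (adjusted p of 0.204 or more), and 1 had an unadjusted p under 0.05. Between 0% and 15.8% of all features passed these comparisons. That 1 was long day against short day at ZT 24, with 152 ± 20.4 against 260.5 ± 83.6 CPM (n = 3 each) and a log2 fold change of -0.78 ± 0.34 (adjusted p = 0.204, edgeR; 0.631% of all features passed), where library C of short day overlapped with the long-day libraries. DESeq2 called this 1 comparison of the 18 (-0.93, adjusted p = 0.0357), with 5 at an unadjusted p under 0.05. In 3 of the 18 comparisons the libraries did not overlap, and in all 3 short day was the higher. The share of all features without overlap was not counted, and 3 against 3 libraries can also separate by chance. At ZT 4 short day (209 to 275 CPM) lay above equinox day (116 to 191 CPM), with a log2 fold change of 0.58 ± 0.33 (adjusted p = 0.332, edgeR, 3.19% of all features past the threshold). At ZT 16 short day (224 to 229.9 CPM) lay above equinox day (117 to 198 CPM), with 0.64 ± 0.33 (adjusted p = 0.319, 1.24% past it). It also lay above long day there (166 to 182 CPM), with -0.37 ± 0.33 for long day against short day (adjusted p = 0.672, 3.91% past it). Both cases at ZT 16 rest on the same short-day libraries, whose coefficient of variation of 1.32% was below their counting error of 4.49%. Short day against equinox day at ZT 12 missed the threshold in the main fit (0.64 ± 0.33, adjusted p = 0.262, edgeR). Its libraries overlapped (141 to 269 against 103 to 200 CPM), and 5.98% of all features and 12.8% of microRNAs passed. Among microRNAs alone, this comparison passed, with 0.68 and adjusted p = 0.00313.

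Between neighbouring times of a photoperiod, none of the 18 steps passed edgeR's test, none had an unadjusted p under 0.05, and DESeq2 called none, with 4 under 0.05 unadjusted (0% to 14.1% of all features passed these steps). The step from the end of light to 4 h of dark was -0.03 ± 0.33 in long day, 0.09 ± 0.33 in equinox day and 0.37 ± 0.33 in short day on the log2 scale. The step from the end of the night to 4 h of light was 0.38 ± 0.33 in long day, -0.38 ± 0.33 in equinox day and -0.09 ± 0.33 in short day. In long day at lights off, where 14.1% of all features passed, the 3 libraries before (166 to 182 CPM) and the 3 after (149 to 185 CPM) overlapped.

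The level of miR163 in a library went with the share of that library's counts that microRNAs took. Over the deviations of the 54 libraries from their group means, on log2 scales, Pearson's r was 0.62 and Spearman's rho 0.61. Permutation within groups (100000 draws, two-sided) gave adjusted p of 0.00165 and 0.0018, and r was 0.68 without the 2 libraries whose deviations in share lay farthest from the median deviation. Within photoperiods the values themselves were used, not the deviations, and were permuted across all times. Differences between times therefore enter these r and p-values along with the spread among replicates. There r was 0.63 in equinox day (rho 0.76) and 0.73 in short day (rho 0.72), with n = 18 each. The adjusted permutation p-values of r were 0.0223 and 0.0027, and r was 0.51 and 0.58 without the 2 libraries farthest from the median share. In long day r was -0.12 (rho -0.07, adjusted permutation p = 0.775 for r, n = 18), and 0.16 without the 2 farthest. In all 15 relations were computed and adjusted over, for the microRNA share, the genome share and the counts outside the genome entry. Over the same deviations, the counts outside the genome entry gave r = 0.37 (rho 0.40, adjusted permutation p = 0.0265 for r), 0.36 without the 2 farthest libraries. The genome share gave r = -0.30 (rho -0.27, adjusted permutation p = 0.179 for r), and neither measure passed within any photoperiod. The miR163 level in CPM and the microRNA share are both divided by counts outside the genome entry. Whether other microRNAs go with the microRNA share in the same way was not tested. How much of the spread of miR163 this share accounts for was not tested.

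**Figure D5:**
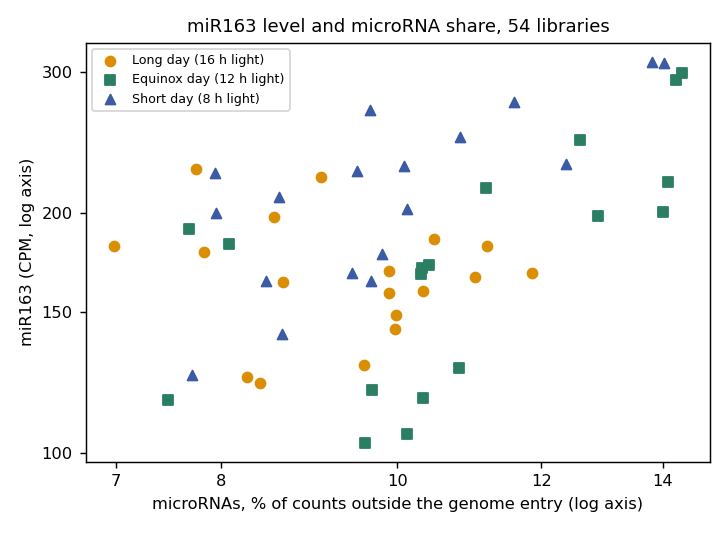
miR163 level in CPM (vertical, log axis) against the percent of counts outside the genome entry that were microRNA (horizontal, log axis), 1 point per library, coloured by photoperiod. The equinox-day and short-day libraries with the largest microRNA shares, up to 14.3%, include those with the highest miR163, up to 309 CPM, while the long-day libraries show no such trend (r = -0.12).

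The course of miR163 over the 18 group means was compared with those of the other 148 tested microRNAs by Pearson's correlation of log2 CPM, as a description. The 5 closest were miR156a-3p (r = 0.87) and miR156c-3p (0.85), the strands opposite to the juvenile-phase microRNA miR156, then miR829-3p.2 (0.80), the miR160a/b/c-5p feature, which targets auxin response factors (0.78), and the miR390a/b-5p feature, which starts tasiRNA production (0.78). The 3 least alike were miR169f-3p (-0.54), miR165a-5p (-0.51) and miR168b-3p (-0.48). Over the deviations of the 54 libraries from their group means these 3 went the other way, with r of 0.61, 0.42 and 0.36. On that measure 143 of the 148 microRNAs were above 0, with a median of 0.57, so most varied together with miR163 from library to library. For the 18 group means, the median r of the 148 was 0.34 and 108 were above 0, and all these courses share the libraries and their totals. By edgeR's test between long day and short day, miR156c-3p passed with -0.38 ± 0.14 (adjusted p = 0.0400), while miR156a-3p, at 387 ± 92.8 against 498 ± 147 CPM, had -0.35 ± 0.14 (adjusted p = 0.0647), sizes close to that of miR163. Both were picked for likeness over group means that include these photoperiods, so sizes close to that of miR163 follow in part from the choice.

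One list took microRNAs by number, meant for those known mainly from Arabidopsis and its relatives, though it also holds miR403, miR827, miR845 and miR858, which are known from other plants as well. Of its 97 features, 55 were abundant enough to test. Between long day and short day 2 were higher and 11 lower by edgeR's test, with a median log2 fold change of -0.19, against -0.17 over all microRNAs, of which 8.05% were higher and 20.8% lower. Over all features, 10.8% were higher and 14.4% lower. The 4 with the largest changes were miR841a-3p (-1.18 ± 0.24, adjusted p = 0.000382), miR852 (-1.07 ± 0.24, adjusted p = 0.00111), miR400, which targets pentatricopeptide repeat transcripts (-0.90 ± 0.34, adjusted p = 0.0420), and miR831-3p (0.90 ± 0.24, adjusted p = 0.00532). miR163 was the 17th lowest of the 55. Against equinox day, 3 of the 55 passed for long day and 7 for short day, where 7.38% and 18.8% of all microRNAs did. The shares over all features were 15.7% and 32.8%. Under long day miR852 stood at 2.98 ± 1.45 CPM and miR841a-3p at 2.00 ± 0.82 CPM, against 168 CPM for miR163.

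A second list held microRNAs that have been tied to light signalling (miR156, miR157, miR163, miR172, miR319, miR396, miR398, miR408 and miR858), of which 29 of 34 features were tested. Between long day and short day 2 were higher and 5 lower, with a median of -0.17, in the contrast where 25.1% of all features and 28.9% of microRNAs passed (8.05% of microRNAs higher and 20.8% lower). The largest were miR156f-3p (-0.76 ± 0.26), miR398a-3p, which acts on copper proteins (0.73 ± 0.18), the miR398b/c-3p feature (0.71 ± 0.20) and miR396a-5p, which targets growth-regulating factors (-0.68 ± 0.21). miR163 was the 11th lowest of the 29. For light against dark, 1 of 29 passed in long day and 0 in equinox day and in short day by edgeR's test, against 6.71%, 4.03% and 2.01% of all microRNAs. The shares over all features were 14.4%, 4.67% and 4.04%. Of the 4 features whose mature strand has 24 bases, as miR163 has, 3 were tested. miR5653 and miR829-3p.1 stood at 1.56 ± 0.98 and 4.29 ± 2.20 CPM under long day, and by edgeR's test neither passed between long day and short day (-0.47 ± 0.38 and -0.26 ± 0.26).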

How the data were processed

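The authors deposited raw read counts, whole numbers per feature and library. Tools named there, per the submitters' processing notes, are Bowtie2 2.5.1, cutadapt 3.4 and SAMtools. Settings, genome build and counting rule were not given in the sources used here. For totals and tests, the entry named genome was left out. The model, with TMM factors and 1 coefficient for each group, was fitted by edgeR 4.0.16 under R 4.3.3 (limma 3.58.1 loaded). The filterByExpr filter (minimum count 10, minimum total 15) kept 8869 features with 98.1% of counts. The fit had 36 residual degrees of freedom and a prior of 12.5. p-values were adjusted over the 8869 features at a threshold of 0.05. Log2 CPM used a prior count of 2. The steps were tested on simulated data. DESeq2 1.42.0 was an alternative, beside other scalings, filters, covariates and sample sets. Sequences came from RefSeq's TAIR10.1 (RNAfold 2.7.2, blastn 2.17.0). The feature, lists and naming rule (members, the 5 most and 3 least alike microRNAs, up to 4 per list) were chosen with earlier results of these data known. Libraries held 191 to 868 miR163 counts, and the group mean counts give a counting error of 4.02% to 5.80%. Group coefficients of variation reached 40.6%, so in most groups the spread among libraries limits precision more than depth does.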

Additional observations from a re-analysis of the deposited data

How the results depend on the processing

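Long day against short day (log2 fold change -0.34) kept its direction in every alternative and passed the threshold in 8 of 11 others: -0.43 with DESeq2 size factors (adjusted p = 0.0112), -0.39 without TMM factors (0.0346), -0.41 without the 10 most abundant features (0.0256), -0.21 with microRNAs alone (0.0194), -0.41 with a filter of 1 CPM in 27 libraries (0.0282), -0.39 with the genome share as a covariate (0.0331), -0.48 without the 5 short-day libraries apart (0.0269) and -0.43 with DESeq2 (0.00287). It missed it at -0.34 with no filter and at -0.25 with totals that include the genome entry. These alternatives refit the same counts, so their values are not independent. Short day against equinox day (0.26) passed at 0.31 with DESeq2 size factors (0.0479) and with DESeq2 (0.0256), 0.32 with microRNAs alone and 0.40 without the 5 libraries (0.0459). Long day against equinox day turned to 0.085 with genome totals and 0.11 with microRNAs alone. Light against dark turned in long day to -0.11 without TMM factors and -0.062 with the covariate, in equinox day to 0.033 with lights off as dark, and in short day to 0.041 with genome totals, 0.14 with microRNAs alone, 0.24 with lights off as dark and 0.16 with lights off left out. Light state turned to 0.018 with DESeq2 size factors, 0.017 with DESeq2, 0.033 without the 10 features, 0.011 with genome totals, 0.054 with the CPM filter, 0.051 without the 5 libraries, and 0.31 with lights off as dark. The cause was not tested.

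Leaving out 1 library or 1 letter gave -0.47 to -0.27 for long against short day, -0.17 to -0.00 for long against equinox day and 0.15 to 0.38 for short against equinox day. It gave 0.03 to 0.22 for light against dark in long day, -0.42 to -0.13 in equinox day, -0.21 to 0.00 in short day (0.0046 without short day ZT 8 C) and -0.30 to 0.18 for light state. The tests across times and of the interaction passed in no alternative. Over all tested features, letters did not pair the libraries: 34.0% of 459 same-letter pairs had correlated deviations over 0.1, against 35.7% of 918 pairs with different letters. For miR163 alone, log2 CPM deviations from the group means averaged 0.08 ± 0.29 in A, 0.04 ± 0.26 in B and -0.12 ± 0.31 in C (SD, n = 18 each). Whether miR163 differs by letter was not tested. With the letter as a replicate block, long against short day was -0.33 (adjusted p = 0.0655) and no call changed.

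Of 288 values for single times and steps under 8 settings, 264 kept sign and side of the threshold, 22 changed sign and 2 newly passed. Sign changes without TMM factors were long against short day at ZT 20 (0.23), long against equinox day at ZT 16 (-0.21), the long-day steps to ZT 12 (0.19), ZT 16 (-0.19) and ZT 20 (0.47), and the short-day step to ZT 16 (-0.19). With microRNAs alone they were long against short day at ZT 20 (0.0048), long and short against equinox day at ZT 8 (0.16 and 0.24), the long-day steps to ZT 16 (-0.014) and ZT 20 (0.10), the equinox-day steps to ZT 4 (0.020) and ZT 8 (-0.12), and the short-day steps to ZT 4 (0.37) and ZT 16 (-0.11). With the covariate they were long against short day at ZT 20 (0.036), the long-day steps to ZT 12 (0.00015) and ZT 20 (0.25) and the short-day step to ZT 16 (-0.011). The equinox-day step to ZT 24 was 0.0037 with DESeq2 size factors and 0.0031 with DESeq2, and the long-day step to ZT 24 was 0.023 with genome totals.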
